A study of Mus musculus with 2 samples.

Results

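Stretches of the genome around single coding genes where open chromatin away from promoters was called mainly after Taf4 loss are described here. They were found in ATAC-seq peak lists, which mark DNA that a transposase can reach, of enteroids, which are cultures of ileal crypt epithelium. Crypts came from mice of 4 months of age and mixed C57Bl6/129sv strain. Control enteroids carried the floxed Taf4 alleles without Cre and are labelled WT. Taf4-inactivated enteroids carried the same alleles with a Cre recombinase that the Villin promoter drives in intestinal epithelial cells and that is active only with 4-hydroxytamoxifen (4-OHT), and are labelled KO. The study treated both with 1 µM 4-OHT for 3 days. Each genotype had 1 library, so every difference below is between these 2 libraries and has no replicate check, and all confidence intervals are exact binomial or order-statistic 95% intervals that cover counting error only.

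A peak was called distal when it lay more than 1 kb from the start site of any annotated transcript, and it was assigned to the coding gene with the nearest start site. It was called Taf4-inactivated-only or control-only when it overlapped no peak of the other list by even 1 bp, and shared otherwise. Of 53780 distal Taf4-inactivated peaks 26271 had no control partner, a background of 48.8%, and of 70789 distal control peaks 43508 had no Taf4-inactivated partner, a background of 61.5%. Neighbourhood genes were chosen by these presence calls, as those with 4 or more Taf4-inactivated-only peaks and at most 0.5 times as many control-only peaks. The rule found 385 neighbourhood genes among 16293 coding genes with a distal peak, which is 2.36% of them. Their 2046 Taf4-inactivated-only peaks, the members, are taken from 161727 peaks in both lists. The counts of both kinds of peak without partner follow from the rule and are given as a description.

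Taf4 encodes a subunit of TFIID, the general factor that brings RNA polymerase II to promoters. Distal open sites include enhancers, where factors such as AP-1 (Fos and Jun dimers), the GATA factors, HNF4 and CDX factors bind in intestinal cells. Several enhancers can serve a single gene, and many open sites near a gene are common where a gene is active in a given cell type. The nearest gene is not always the gene that an enhancer serves, and an open site is not by itself an enhancer.

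The 10 member peaks below show what these open sites look like in sequence, read from the mm9 reference on the plus strand, 5′ to 3′. Of these, 7 were taken by rule: the peak of highest fold at Pde4d, Cited2 and Chrm3, which are among the neighbourhoods with the most members, and members of high fold with an AP-1 match (Cd46, Flrt3) or a GATA match (Tm4sf4, Ifne). The rule left out the chromosome of Zfp608 and St8sia3, so the St8sia3 peak, which has a GATA match and a higher fold than those at Tm4sf4 and Ifne, is not printed. Those at Slc26a3, Areg and Cyp3a11 were added after their values were seen, because they join an epithelial gene with a match. Capitals mark matches on either strand to the searched letters: for AP-1 TGACTCA or its other form TGAGTCA, and for GATA the word GATA with A or T before it and A or G after it. The letters for HNF4 were CAAAGTCCA, those for FOX were TGTTTAC and those for TEAD were GGAATGT. For CDX they were CAATAAA or the form with C in place of the second letter. A match is a run of letters and not a measured binding site.
Cd46, chr1:196838777-196839076: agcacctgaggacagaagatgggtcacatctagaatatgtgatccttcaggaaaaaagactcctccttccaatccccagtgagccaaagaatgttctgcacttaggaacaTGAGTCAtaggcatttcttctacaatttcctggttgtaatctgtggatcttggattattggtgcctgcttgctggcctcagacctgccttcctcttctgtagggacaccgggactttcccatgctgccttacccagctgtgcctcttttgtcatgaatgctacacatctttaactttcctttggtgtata
Tm4sf4, chr3:57190858-57191152: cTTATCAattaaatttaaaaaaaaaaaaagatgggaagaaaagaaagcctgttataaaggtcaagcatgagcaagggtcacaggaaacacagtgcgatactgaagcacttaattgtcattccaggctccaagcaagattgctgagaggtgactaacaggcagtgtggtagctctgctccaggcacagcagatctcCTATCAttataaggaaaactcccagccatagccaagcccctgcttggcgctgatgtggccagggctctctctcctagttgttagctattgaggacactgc
Ifne, chr4:88539216-88539515: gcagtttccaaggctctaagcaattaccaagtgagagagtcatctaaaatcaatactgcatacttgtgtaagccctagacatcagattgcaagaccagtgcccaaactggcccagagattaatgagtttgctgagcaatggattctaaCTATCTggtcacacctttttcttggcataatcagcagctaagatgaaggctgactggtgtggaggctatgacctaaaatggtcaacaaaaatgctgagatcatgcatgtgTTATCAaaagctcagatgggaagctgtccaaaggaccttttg
Flrt3, chr2:140616183-140616472: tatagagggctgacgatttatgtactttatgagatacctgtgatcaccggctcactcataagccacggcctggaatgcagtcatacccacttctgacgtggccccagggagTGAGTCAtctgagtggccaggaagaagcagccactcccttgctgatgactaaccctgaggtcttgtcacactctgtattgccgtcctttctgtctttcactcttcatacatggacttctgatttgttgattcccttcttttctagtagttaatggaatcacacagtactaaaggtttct
Pde4d, chr13:109881822-109882121: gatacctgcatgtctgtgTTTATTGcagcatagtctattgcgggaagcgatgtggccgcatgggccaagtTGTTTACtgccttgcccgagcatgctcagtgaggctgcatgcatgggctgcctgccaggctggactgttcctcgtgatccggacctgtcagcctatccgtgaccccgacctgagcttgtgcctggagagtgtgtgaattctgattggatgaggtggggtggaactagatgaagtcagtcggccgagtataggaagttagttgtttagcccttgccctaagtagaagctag
Cited2, chr10:16992538-16992836: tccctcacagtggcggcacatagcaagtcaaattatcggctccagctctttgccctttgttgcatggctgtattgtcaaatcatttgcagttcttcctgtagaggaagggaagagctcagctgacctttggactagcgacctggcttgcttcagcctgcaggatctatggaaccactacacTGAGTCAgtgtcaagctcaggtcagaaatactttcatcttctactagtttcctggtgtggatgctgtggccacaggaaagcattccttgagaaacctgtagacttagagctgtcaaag
Chrm3, chr13:10180570-10180869: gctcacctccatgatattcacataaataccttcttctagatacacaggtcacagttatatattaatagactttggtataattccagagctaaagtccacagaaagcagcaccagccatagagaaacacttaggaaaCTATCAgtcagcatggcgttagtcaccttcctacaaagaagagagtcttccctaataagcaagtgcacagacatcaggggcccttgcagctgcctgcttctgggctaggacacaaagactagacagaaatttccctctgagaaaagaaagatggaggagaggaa
Slc26a3, chr12:32082672-32082971: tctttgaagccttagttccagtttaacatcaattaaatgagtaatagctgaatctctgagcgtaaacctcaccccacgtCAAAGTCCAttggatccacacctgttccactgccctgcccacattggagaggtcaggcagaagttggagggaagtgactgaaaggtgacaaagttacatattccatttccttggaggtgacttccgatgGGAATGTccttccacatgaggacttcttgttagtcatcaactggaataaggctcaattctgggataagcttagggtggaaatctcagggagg
Areg, chr5:91552469-91552760: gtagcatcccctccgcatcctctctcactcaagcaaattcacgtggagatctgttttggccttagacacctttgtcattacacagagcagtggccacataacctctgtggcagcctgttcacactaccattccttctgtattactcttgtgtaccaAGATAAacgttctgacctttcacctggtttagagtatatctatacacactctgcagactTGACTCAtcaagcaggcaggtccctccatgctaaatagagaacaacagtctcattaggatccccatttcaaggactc
Cyp3a11, chr5:146712117-146712400: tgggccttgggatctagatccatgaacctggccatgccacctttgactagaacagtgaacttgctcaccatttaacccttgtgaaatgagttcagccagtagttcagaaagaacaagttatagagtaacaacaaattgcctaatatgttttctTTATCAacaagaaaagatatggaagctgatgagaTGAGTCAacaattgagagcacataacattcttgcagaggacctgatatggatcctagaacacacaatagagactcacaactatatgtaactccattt
The capitals in Cd46, Flrt3 and Cited2 are AP-1 letters, and those in Tm4sf4, Ifne and Chrm3 are GATA letters. The Slc26a3 window holds the HNF4 letters and further on those of TEAD, while the Areg and Cyp3a11 windows each hold both a GATA and an AP-1 match. The Pde4d window holds a CDX and a FOX match and neither AP-1 nor GATA.

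In control enteroids the list held 90445 peaks and after Taf4 inactivation 71282. The lowest local background solved from fold and p was 12.1 reads for control and 7.35 for Taf4-inactivated enteroids, 1.65 times apart, as an estimate of relative depth, since the files give no number of reads. Markers of epithelium had a start site peak at 11 of 12 genes in control and at 12 of 12 after Taf4 inactivation. Markers of other cell types (immune, endothelial, stromal, muscle and neural) had one at 12 and 11 of 22 genes, at a lower median fold percentile of 50.9 against 88.4 in control and 33.3 against 73.9 after Taf4 inactivation. The targeted gene, annotated as Taf4a, had 2 Taf4-inactivated-only and 4 control-only distal peaks and is not a neighbourhood gene.

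The mirrored rule, 4 or more control-only peaks and at most 0.5 times as many Taf4-inactivated-only peaks, was met by 2301 genes, 14.1% of those with a distal peak. This difference between directions depended on the lists as deposited. With both lists kept to peaks at −log10 q of at least 2, 655 genes passed in the Taf4-inactivated direction and 539 in the control direction, and 181 of the 385 neighbourhood genes were among the former. With the 50000 peaks of highest −log10 p in each list the numbers were 659 and 639. When the control-only count of each gene was scaled to the total of distal Taf4-inactivated-only peaks, 673 and 448 genes passed.

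**Figure D1:**
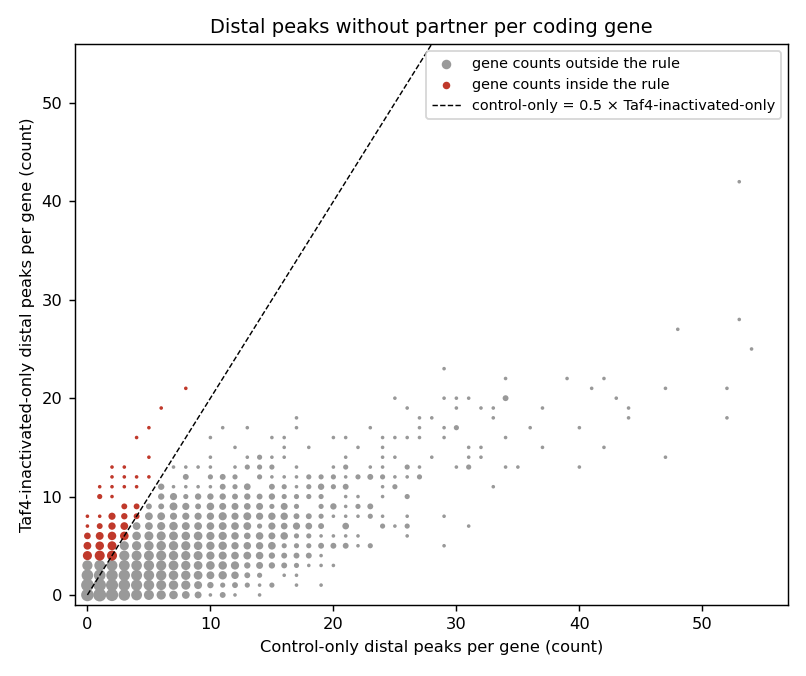
Number of Taf4-inactivated-only (vertical) and control-only (horizontal) distal peaks per coding gene, 1 library per genotype. Each point is a pair of counts and its area grows with the log10 of the number of genes that have it, red points meet the rule, and the dashed line is where the control-only count is 0.5 times the other. The red points are a thin edge of the distribution, with 385 of 16293 genes.

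Most neighbourhoods were small. There were 4 members at 201 genes, 5 at 62, 6 at 59, 7 at 23 and 8 at 16, and the highest number was 21. Control-only peaks were absent from 52 neighbourhoods, and 123 held 1 and 153 held 2 of them. Just inside the threshold, 84 genes had 4 Taf4-inactivated-only and 2 control-only peaks. Just outside it, 100 genes had 4 and 3, and 190 had 3 and 1. The neighbourhoods also held 1010 shared peaks of the Taf4-inactivated list, and 66 had no shared peak at all, so most neighbourhood genes had open chromatin of both kinds.

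Zfp608, which encodes a zinc finger protein, had the most members, 21 beside 8 control-only and 11 shared peaks. Pde4d, a phosphodiesterase that breaks down cAMP, followed with 19 members, 6 control-only and 14 shared peaks. At this gene (chromosome 13, 109240142 to 110743669, plus strand) 18 of the 19 members lay in introns of Pde4d itself, and 7 windows held an AP-1 match and 14 a GATA match. The folds of its members over local background ran from 2.22 to 4.00 with a median of 2.85. Pde3a, another cyclic nucleotide phosphodiesterase, had 11 members and 1 control-only peak, and 8 of the members were in its own introns.

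Cited2, which encodes a partner of the coactivators CBP and p300, had 17 members and 5 control-only peaks. Its members were all intergenic, spread over 1288 kb and up to 1275946 bp from the start. Chrm3, a muscarinic acetylcholine receptor, had 16 members and 4 control-only peaks. The annotation used here places Chrm3 only at 9876381 to 9878329 of chromosome 13, and a start outside these ends was not considered. By these ends all 16 members counted as intergenic. The annotated start site of Chrm3 had a peak only in the Taf4-inactivated list, at the low percentile of 23.7 by fold. Both genes lie in gene-poor stretches, with territories of 1518 and 1217 kb, in which many open sites fall to the same nearest start.

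Atp2b1, a calcium pump of the plasma membrane, had 13 members and 3 control-only peaks, and its members ranked high, with a median fold percentile of 76.3. Atp1b1, the beta subunit of the sodium and potassium pump, had 12 members, 2 control-only and 11 shared peaks. Cobl, an actin nucleator of the brush border, had 9 members and 3 control-only peaks. At Fam83b, 10 members stood beside 1 control-only and 1 shared peak, and neither library had a peak at the start site. A GATA match was in 9 of the 10 windows, beside 49.6% of all member windows.

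The rest of the 20 largest neighbourhoods had between 9 and 14 members. Ubl3, encoding a membrane-anchored ubiquitin-like protein, had 14 members and 5 control-only peaks within 240 kb of territory, the stretch that lies nearest to its starts. Mecom, a zinc finger transcription factor, had 10 and 2, Chn2, which acts on the GTPase Rac, had 12 and 5, and Rad51l1, of recombination repair, had 9 and 3. Olfr1324, an olfactory receptor gene on the X chromosome with no start site peak in either library, had 13 members and 2 control-only peaks, all 13 intergenic and none with an AP-1 match. Gramd3 had 11 and 4, Lphn3 had 12 and 4, and the uncharacterised genes 1700025G04Rik and 3830408C21Rik had 11 and 2, and 10 and 1.

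**Figure D2:**
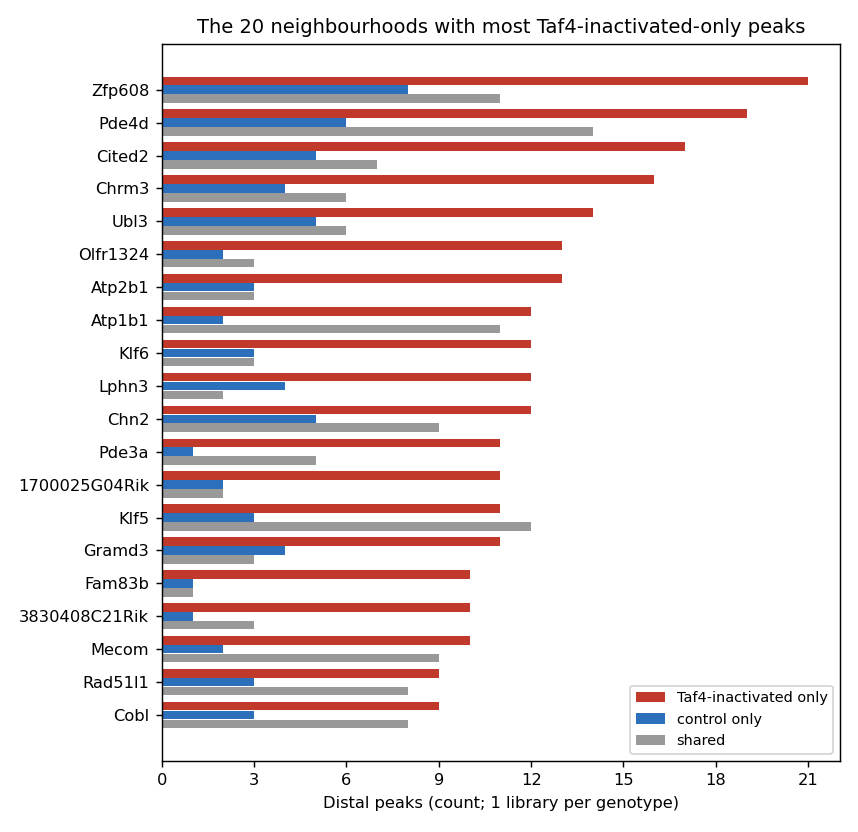
Distal peaks at the 20 genes with the most Taf4-inactivated-only peaks, as counts on the horizontal axis for Taf4-inactivated-only (red), control-only (blue) and shared (grey) peaks. Red bars run from 21 at Zfp608 to 9 at Rad51l1 and Cobl, and at Klf5 the shared peaks (12) outnumber the members (11).

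Among 45 transcription factors of the intestine with a distal peak, Klf6, Klf5 and Nr1i2 were neighbourhood genes, 6.67% against 2.36% of all genes. The median territory of these factors was 153 kb. Of all genes with territories of 116 to 178 kb, 4.42% met the rule. Klf5, which supports proliferation of crypt cells, and Klf6 belong to the Kruppel-like zinc finger factors. At Klf6 (chromosome 13, 5860735 to 5869639, plus strand) the 12 members were all intergenic, at 15897 to 345650 bp from the start. The fold was 4.30 at a distance of 19720 bp and 4.33 at 269958 bp, the other 10 members lay between 2.22 and 3.83, and 3 members were in the top 10% of the list. At the Klf6 start itself the peak had a fold of 2.89 in control and 3.78 after Taf4 inactivation, at percentiles 94.98 and 91.3 of the respective lists, so the promoter ranked high in both.

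At Klf5 (chromosome 14, 99697910 to 99712624, plus strand) 11 members ran from 6374 to 414727 bp away. Their folds were between 2.23 and 3.53 with a median of 2.71, 7 windows held a GATA match, and 3 held an AP-1 match. The start site peak was at percentile 98.2 in control and 91.4 after Taf4 inactivation. Nr1i2, which encodes the xenobiotic receptor PXR, had 5 members with folds from 2.27 to 2.57, 3 of them over exons. In the control direction 8 of the 45 factors passed (17.8%), beside 14.1% of all genes. Of all genes with territories of 116 to 178 kb, 27.6% passed in that direction. With both lists at −log10 q of at least 2, 11 of 44 factors (25%) passed in the Taf4-inactivated direction and 4 (9.09%) in the control direction, beside 4.801% and 3.95% of all genes, and Klf6, Klf5 and Nr1i2 were among the 11.

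Of 52 genes of enterocyte digestion and absorption, 5 were neighbourhood genes (9.62%) and 3 passed in the control direction (5.77%). Of all genes 2.36% and 14.1% did. Sis, which encodes the brush border enzyme sucrase-isomaltase, had 8 members and no control-only peak. At Sis (chromosome 3, 72692479 to 72771785, minus strand) the folds were 3.58 at 8803 bp, 2.67 at 23039 bp and 3.03 at 29674 bp. The other 5 members, at 81037 to 1402625 bp, had folds of 2.25 to 2.38. The highest folds at Sis were at its nearest members. A GATA match was in 7 of the 8 windows, beside 49.6% of all member windows.

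At Slc26a3, the chloride and bicarbonate exchanger of the apical membrane (chromosome 12, 32075736 to 32158782, plus strand), 4 members stood beside 4 shared peaks and no control-only peak. Their folds were 3.09 at 15915 bp in intergenic sequence and 3.57 at 6935 bp, 2.77 at 15992 bp and 3.28 at 8893 bp in introns of the gene. All 4 were above the median of the other Taf4-inactivated-only peaks, which was 2.30. The start site peak of Slc26a3 was at percentile 95.8 in control and 97.9 after Taf4 inactivation, so this gene had an open promoter in both libraries.

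Slc10a2, the ileal bile acid transporter (chromosome 8, 5085623 to 5105232, minus strand), had 4 members and 1 control-only peak. Its members had folds of 2.81, 3.65, 3.26 and 2.32, at 101537, 79071, 73528 and 23483 bp. Every window held a GATA match, beside 49.6% of all member windows. Cubn, the receptor for intrinsic factor and vitamin B12, had 5 members and no control-only peak, with folds of 2.38, 3.90, 3.30, 2.83 and 2.66. Neither library had a peak at the annotated starts of Cubn or Sis.

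Of 35 detoxification genes, 4 were neighbourhood genes (11.4%) and 2 passed in the control direction (5.71%), beside 2.36% and 14.1% of all genes. Cyp3a11 and Cyp3a25, cytochromes P450 that oxidise drugs, lie next to each other and together held 10 members and no control-only peak. At Cyp3a11 (chromosome 5, 146666002 to 146691540, minus strand) the 6 members had folds of 2.22, 3.66, 2.85, 3.01, 2.90 and 3.83, at 8620, 1292, 4454, 20577, 23426 and 31783 bp. A start site peak was called at Cyp3a11 only after Taf4 inactivation, with a fold of 3.00. At Cyp3a25 the 4 folds were 2.47, 2.32, 2.64 and 3.43. These genes have near-identical copies, and the authors kept only reads that map to a unique place, so stretches identical between copies could give no peak.

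Aldh1a1, a retinaldehyde dehydrogenase (chromosome 19, 20676451 to 20717952, plus strand), had 4 members with folds of 2.87, 2.64, 4.21 and 3.17. Every window held a GATA match, beside 49.6% of all member windows. Its start site peak was at percentile 93.7 in control and 98.9 after Taf4 inactivation. Cyp2c29 had 4 members and 2 control-only peaks, with a start site peak only after Taf4 inactivation. With both lists at −log10 q of at least 2, Aldh1a1, Cyp3a11 and Cyp3a25 passed, 3 of 34 genes or 8.82%, beside 4.801% of all genes. No detoxification gene passed in the control direction there, where 3.95% of all genes did.

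Of 33 genes of regenerative and fetal epithelium, Areg, Cyr61 and Krt20 were neighbourhood genes (9.09%), and 5 passed in the control direction (15.2%), beside 2.36% and 14.1% of all genes. This order turned with both lists at −log10 q of at least 2 (3 against 1 genes, with Krt19 passing and Krt20 not), with the 50000 highest peaks (4 against 2) and with scaled counts (3 against 0). Areg encodes amphiregulin, a ligand of the EGF receptor. At Areg (chromosome 5, 91568641 to 91577458, plus strand) the 5 members had folds of 3.66, 3.28, 4.02, 3.28 and 3.75, at 15881, 36667, 60714, 65051 and 80630 bp. They lay at fold percentiles of 83.1 to 93.8, and there was no control-only peak. The neighbouring gene Btc, which encodes another ligand of the EGF receptor, also met the rule, and the pair held 12 members and 2 control-only peaks. At the Areg start the peak was at percentile 89.2 in control and 94.5 after Taf4 inactivation.

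Cyr61, a matricellular target of YAP signalling, had 4 members and 2 control-only peaks, with folds from 2.42 to 2.57. Its start site peak was at percentile 47.4 in control and 69.5 after Taf4 inactivation. Krt20 is a keratin of differentiated enterocytes, so its place in the list of regenerative and fetal genes is open to doubt. It is also counted among the epithelial markers. Its 4 members had folds of 3.19, 2.72, 2.32 and 2.21, the highest of them at 1085 bp from the start. A start site peak at Krt20 was called only after Taf4 inactivation. Epcam, the other epithelial marker that met the rule, had 6 members, 2 control-only and 8 shared peaks, with folds no higher than 2.56.

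**Figure D3:**
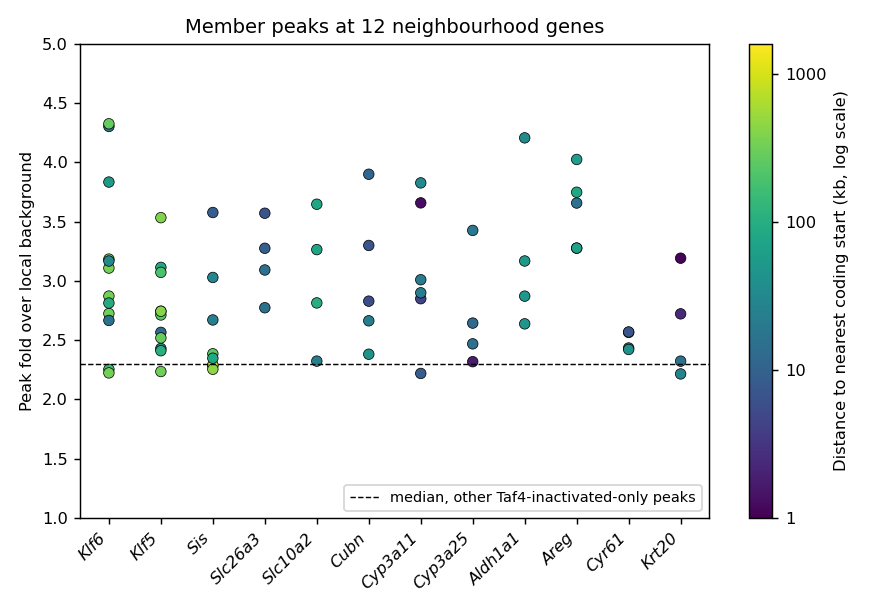
Fold over local background (vertical) of each member peak at 12 neighbourhood genes, coloured by distance to the nearest coding start in kb on a log scale, with the median of 2.30 of the other Taf4-inactivated-only peaks as a dashed line. The 5 points of Areg lie between 3.28 and 4.02, the 4 of Cyr61 lie between 2.42 and 2.57, and Klf6 reaches 4.33.

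Of 77 genes of axon guidance and neuronal adhesion, 7 were neighbourhood genes (9.09%) and 19 passed in the control direction (24.7%), beside 2.36% and 14.1% of all genes. This order turned in other settings, with 9 against 5 genes at −log10 q of at least 2, 10 against 8 with the 50000 highest peaks and 13 against 5 with scaled counts. At −log10 q of at least 2, Cntnap4, Efna5, Flrt2 and Pcdh15 no longer passed. Lphn3, a latrophilin, had 12 members and 4 control-only peaks, with a median fold of 2.97. Flrt3, an adhesion protein of epithelia and neurons, had 4 members, of which the strongest had a fold of 4.58 at 118978 bp. Flrt2, Efna5, Cntnap4 and Pcdh15 had 4 to 6 members each. The symbol Efna5 belongs to 2 annotated genes. The other one had 1 Taf4-inactivated-only and 4 control-only peaks and met the mirrored rule. Most of these genes are long or lie in gene-poor stretches, with a territory of 314 to 3349 kb. The median territory of the 77 genes was 1291 kb. Of all genes with territories of 341 to 4423 kb, 5.65% met the rule and 26.8% the mirrored one.

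Several lists gave no neighbourhood gene. None of 23 crypt stem cell genes met the rule and 11 met the mirrored one, 47.8% against 14.1% of all genes. The median territory of this list was 195 kb. Of all genes with territories of 178 to 341 kb, 4.67% met the rule and 28.5% the mirrored one. Lgr5, the receptor that marks crypt base stem cells, had 1 Taf4-inactivated-only and 4 control-only peaks. None of 111 developmental regulators met the rule and 33 met the mirrored one (29.7%). The median territory of this list was 175 kb. Of all genes with territories of 116 to 178 kb, 4.42% met the rule and 27.6% the mirrored one. The 29.7% is thus near the share of genes with territories of similar size. None of 23 goblet and Paneth cell genes, 20 enteroendocrine and tuft cell genes, 17 AP-1 family genes and 21 markers of other cell types met it, while 3, 3, 3 and 4 of them met the mirrored rule (13.0%, 15%, 17.6% and 19.0%). With 2.36% and 14.1% of all genes passing, these 4 lists are near the background in both directions.

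These zeros did not all last under other settings. With both lists at −log10 q of at least 2, the crypt stem cell gene Prom1, the goblet cell gene Reg4, the AP-1 genes Fos and Jun and 6 of 98 developmental regulators passed in the Taf4-inactivated direction, beside 4.801% of all genes. In the same setting 2 of 21 crypt stem cell genes and 11 of 98 developmental regulators passed in the control direction, beside 3.95% of all genes. Enterocyte genes passed at 10 of 52 (19.2%) in the Taf4-inactivated and 1 in the control direction. Markers of other cell types stayed at 0 of 16.

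**Figure D4:**
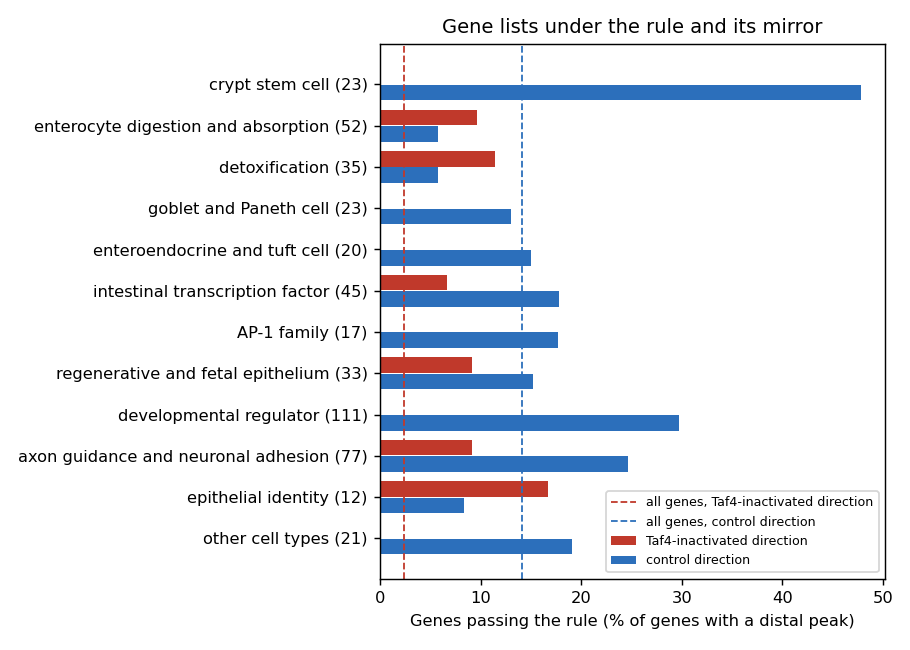
Share of genes in each list (number with a distal peak in parentheses) that met the rule in the Taf4-inactivated direction (red) and its mirror in the control direction (blue), in percent, with the shares of all genes, 2.36 and 14.1, as dashed lines. Red bars pass the blue ones in enterocyte (9.62 against 5.77), detoxification (11.4 against 5.71) and epithelial identity genes, the last with only 12 genes.

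The size of the territory bears on the count a gene can reach. The median territory was 154 kb at neighbourhood genes (interval 137 to 174), 226 kb at all genes with 4 or more Taf4-inactivated-only peaks, 138 kb at genes of the mirrored rule and 60.6 kb over all genes. With genes in 10 groups of equal size by territory, no gene of the group with the smallest territories met the rule, and 5.65% of the group with the widest did. Shared peaks, which the rule did not use, were less dense in the neighbourhoods than over all genes, at 9.001 against 11.5 per Mb. At genes of the mirrored rule they stood at 12.3 per Mb. At all genes with 4 or more Taf4-inactivated-only peaks they stood at 13.3 per Mb. Members made up from 3.50% of distal Taf4-inactivated-only peaks on chromosome 7 to 15.0% on chromosome 13, where Pde4d, Chrm3 and Klf6 lie.

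Members were seldom within 1 kb of each other, but many were within 10 kb. The median gap between successive members of the same neighbourhood was 18.3 kb. Of 1661 gaps 13 were under 1 kb and 544 (32.8%) under 10 kb. Members stood at 18.2 per Mb of territory, and whether they lay closer together than scattered peaks would was not tested. Neighbourhood genes were next to each other in 18 pairs and never in a run of 3. Klf6 with Pitrm1 held 16 members and 4 control-only peaks, and Nr1i2 with Gsk3b held 9 and 3. The nearest control peak of any kind lay at a median of 8.74 kb from a member (interval 8.18 to 9.50), against 4.57 kb for the other Taf4-inactivated-only peaks, and 51 members (2.49%) had one within 500 bp. The rule limits control-only peaks near members, so these distances follow in part from it.

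Members lay at introns in 40.3% of cases (interval 38.2 to 42.5), between genes in 56.4% and over exons in 3.27%. Of the other Taf4-inactivated-only peaks 43.9% were at introns and 51.3% between genes. The median distance of members to the nearest coding start was 31.6 kb against 23.8 kb. Their median width was 330 bp, and the median for distal shared peaks of the Taf4-inactivated list was 537 bp.

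By fold, members stood above the other peaks without partner. Their median fold was 2.46, at percentile 50.8 of all Taf4-inactivated peaks (interval 48.8 to 52.6), against percentile 36.0 for the other Taf4-inactivated-only peaks and 52.2 for distal shared peaks. The value of −log10 q was at least 5 in 324 members (15.8%) and in 7.57% of the other Taf4-inactivated-only peaks, and 73 members (3.57%) were in the top 10% of the list. Shared peaks in the same neighbourhoods were higher still, with a median percentile of 69.6. The highest members were at Cd46, which encodes a complement regulator, with a fold of 4.68, and at St8sia3 (4.67), Tm4sf4 (4.66), Ces1a (4.60) and Ifne (4.59). These folds come from the library that chose the members and were not tested against control.

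The AP-1 letters were in the central 300 bp of 292 members, 14.3% (interval 12.8 to 15.9). They were in 10.4% of the other Taf4-inactivated-only peaks (10.004 to 10.8), in 11.5% of distal shared peaks, in 6.13% of distal control-only peaks and in 9.22% of all distal peaks. Control-only peaks were weaker calls, with −log10 q of at least 5 in 0.202% of them and in 15.8% of members. The part of peak strength in their lower AP-1, GATA and HNF4 shares was not tested. Stretches 2000 bp beyond the edges of members held the letters in 5.16%, and the reversed letters, which keep base composition but are not the motif, were in 6.70% of member windows. Shared peaks in the neighbourhoods stood at 13.9% (11.8 to 16.2), within the interval of members. With both lists at −log10 q of at least 2 the shares were 15.6% (14.5 to 16.9) in members, 13.4% in other Taf4-inactivated-only peaks and 14.6% in shared peaks, and the intervals of members and shared peaks then overlapped. Over whole peaks, which are wider when shared, the order changed, with AP-1 in 18.4% of members (16.7 to 20.1), 15.0% of other Taf4-inactivated-only, 20.8% of shared peaks and 24.1% of shared peaks in the neighbourhoods. At least 1 member with an AP-1 match was present in 207 of the 385 neighbourhoods.

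The GATA letters were in 49.6% of member windows (47.4 to 51.8), against 40.7% of other Taf4-inactivated-only, 36.4% of shared, 32.5% of control-only and 36.0% of all distal peaks. Shared peaks in the same neighbourhoods stood at 43.5% (40.4 to 46.6). Single genes varied, with a match in 7 of 8 member windows at Sis and 9 of 10 at Fam83b. At Ubl3 it was in 2 of 14, at Atp1b1 in 2 of 12 and at Cyr61 in 1 of 4. Over whole peaks GATA was in 57.5% of members (55.3 to 59.6), 55.8% of shared peaks and 62.8% of shared peaks in the neighbourhoods. The flanks of members held them in 47.5% (45.9 to 49.0), also more than the flanks of the other Taf4-inactivated-only peaks (43.3%), and the reversed letters were in 34.6% of member windows. Members had a lower GC content, with a median of 47.3% against 50% in other Taf4-inactivated-only and 52.3% in shared peaks. The part of base composition in the GATA share was not tested.

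The HNF4 letters were in 63 members, 3.08% (2.37 to 3.92), against 1.68% of other Taf4-inactivated-only peaks (1.53 to 1.85), 1.65% of shared, 0.508% of control-only and 1.22% of all distal peaks. In shared peaks of the same neighbourhoods the share was 1.88% (1.14 to 2.92), which overlaps the interval of members. Over whole peaks the HNF4 letters were in 3.76% of members (2.98 to 4.68) and 2.37% of other Taf4-inactivated-only peaks. They were then in 3.13% of shared peaks (2.93 to 3.35) and 3.86% of shared peaks in the neighbourhoods. The flanks of members held them in 0.367%, so the share in members was well above that of their surroundings. These 63 members lay in 56 neighbourhoods, among them Pde4d and Chn2 with 3 each and the Slc26a3 window printed above. The CDX letters were in 10.7% of member windows, below their 12.9% in the flanks. CTCF letters were in 1.96% of members and 2.32% of other Taf4-inactivated-only peaks. The letters GGGCGGG of SP factors were in 2.79% of members, 3.56% of other Taf4-inactivated-only and 6.61% of shared peaks. FOX letters were in 4.25% of members and 4.33% of their flanks. TEAD letters were in 5.18% of members, 4.61% of other Taf4-inactivated-only peaks and 3.84% of the flanks of members.

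**Figure D5:**
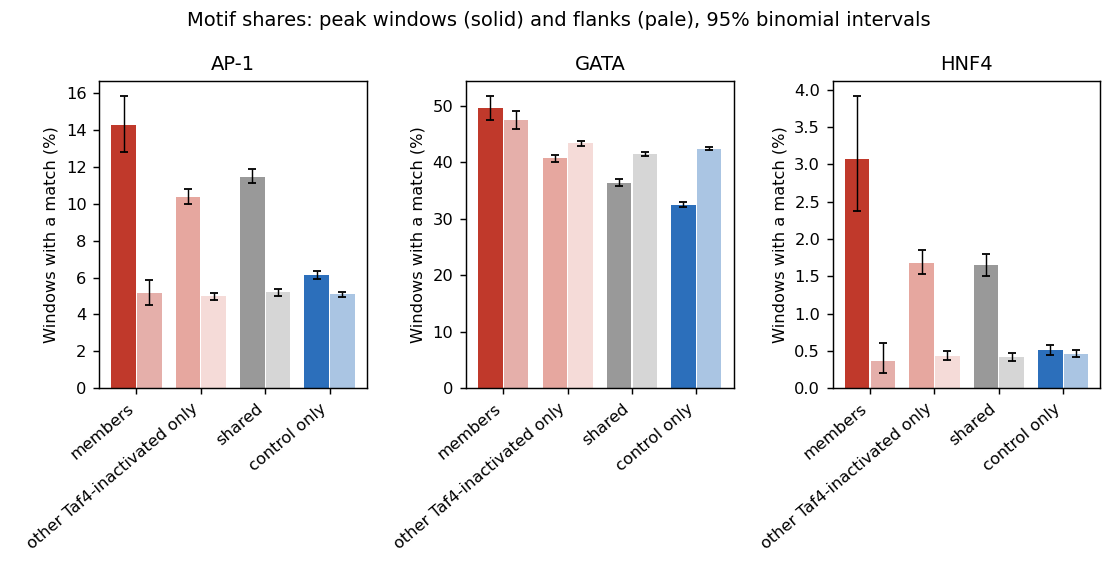
Share of 300 bp windows in percent (vertical, a scale for each panel) with the AP-1, GATA or HNF4 letters, for members, other Taf4-inactivated-only, shared and control-only distal peaks, at the peak (solid bars) and 2000 bp beyond its edges (pale bars), with exact 95% binomial intervals. Members stand at 14.3% for AP-1, 49.6% for GATA and 3.08% for HNF4, and for GATA the pale bar of members (47.5%) is almost as high as the solid one.

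The start sites of neighbourhood genes were not used by the rule. A start site peak was present in both lists at 298 of 385 genes, 77.4% (interval 72.9 to 81.5), against 69.4% of all coding genes with a distal peak. It was called only after Taf4 inactivation at 12, only in control at 12 and in neither list at 63 genes. At the genes of the mirrored rule the share with a peak in both lists was also 77.4%. Between the percentiles by fold of the start site peaks, the median difference was −5.34 points (Taf4-inactivated minus control), with 73 of 298 genes higher after Taf4 inactivation, against −3.32 points over all 11314 genes. At genes of the mirrored rule the median difference was −5.65 points, close to that of the neighbourhood genes. There 27.8% were higher after Taf4 inactivation, beside 24.5% of the 298 genes. At most of the 298 genes the start site peak thus had a lower rank after Taf4 inactivation, as it did over all genes.

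Shared distal peaks are another readout at the same neighbourhoods, from the same pair of libraries. Over 997 pairs of shared peaks in the neighbourhoods the median difference of fold percentiles was −2.23 points (Taf4-inactivated minus control), against −2.92 over all 26898 distal pairs. The Taf4-inactivated peak ranked at least 25 points higher in 12.4% of pairs, beside a background of 12.2%. The control peak ranked at least 25 points higher in 16.5%, beside 19.1%. The shared peaks of these neighbourhoods were thus moved in rank by about as much as shared peaks elsewhere.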

How the data were processed

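Peak lists of 2 ATAC-seq libraries, 1 of control and 1 of Taf4-inactivated enteroids, were grouped by the genotype label. Reads were mapped by the authors to mm9 with Bowtie 1.0.0, which kept reads that map to a unique place, and broad peaks were called in each library with MACS2 2.1.1 (versions from the submitters' processing notes). How duplicate reads were treated is not given in the sources used here. The score that the authors deposited for a peak equals 10 times its −log10 q. The deposited fold (ratio) is enrichment over the local background of the same library, so peaks of different libraries were compared by percentile within a list. Values of −log10 p and −log10 q were deposited as the peak caller gave them. No file gave the number of reads, and the relative depth was solved from fold and −log10 p of the narrowest 10% of peaks in each list.

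Start sites came from the GENCODE annotation of mm9. Peak edges were used for distances and overlaps, and motifs were searched on both strands in 300 bp at the peak midpoint. Computation used scipy 1.17.1, pandas 2.3.3 and numpy 2.4.6 under Python 3.11.15, with matplotlib 3.10.9 for figures. Assignment, overlap, the rule and the depth estimate were tested on simulated data with known answers. With 1 library per genotype no p-value was computed. Peaks are not replicates of a genotype.

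The members and gene lists were chosen with earlier results of these data known. Named genes are the 20 neighbourhoods with the most members, the genes of the 5 members of highest fold and every neighbourhood gene in a list. Where a list symbol belongs to 2 annotated genes, both were counted. Values of 2 of the named genes are not reported here. Genes named beside these (Taf4a, neighbours of named genes, and list genes that passed only in another setting or not at all) were chosen after their values were seen. Alternatives changed the q threshold, overlap, distance, start sites, list size, width, joining of peaks and the rule. Counts by gene list in 3 of these settings were chosen after seeing the data. The promoter sequences at hand were of another genome build and were not used here.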

Additional observations from a re-analysis of the deposited data

How the results depend on the processing

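Of 135 values under the alternatives, 78 stayed within their interval or within 1.5 times the count. The excess of control-direction neighbourhoods was reversed in 3 settings. With both lists at −log10 q of at least 2, neighbourhoods were 655, members 3545, the mirrored count 539 and the difference 116, with introns at 43.2%, median fold percentile 61.9 and territory 187 kb. With the 50000 peaks of highest −log10 p they were 659, 3606, 639 and 20, at percentile 59.5 and 185 kb. With the control-only count scaled, they were 673, 3804, 448 and 225, with AP-1 at 12.5%, GATA at 47.1% and percentile 46.0. Counting only peaks without partner at −log10 q of at least 2 gave a mirrored count of 378, a difference of −4, AP-1 17.0%, GATA 52.8%, introns 45.6%, start site peaks in both lists 85.6%, percentile 64.6 and 244 kb. Peaks of at least 300 bp gave 245 neighbourhoods, 1228 members, GATA 45.4%, introns 36.6%, percentile 47.3 and 195 kb. A minimum of 3 peaks gave 674 neighbourhoods and 109 kb. A minimum of 6 gave 122, 932 members, a mirrored count of 1232, a difference of −1110, percentile 54.1 and 278 kb. A limit of 0.25 times as many gave 189, 948, 1154 and −965, GATA 53.8%, introns 37.8% and percentile 53.7. Overlap of at least 50% of both peaks gave percentile 53.2 and 115 kb, and a distance over 5 kb gave 191 kb. Whole peaks held AP-1 in 18.4% and GATA in 57.5%, and 150 bp windows in 9.29% and 30.2%. Ranked by −log10 p, the median percentile was 46.4. The cause of these changes was not tested.

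The difference of Taf4-inactivated-only and control-only counts changed sign at Pcdh15 (−1 at −log10 q of at least 2). Of the 45 named genes, 22 to 45 still met the rule in each setting, fewest with peaks of at least 300 bp. Of the 385 neighbourhood genes, 125 met it there and 379 with peaks within 1 kb joined.

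No paired analysis was possible because each genotype had 1 library, and for the same reason no library was left out. The number of reads is unknown and was only estimated, and the part of depth in the counts was not tested.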

Other observations

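Several neighbourhood genes were next to each other along a chromosome. Their members did not have to form an unbroken stretch. Those of Zfp608 ended at 55784084 and those of Gramd3 began at 56001696. The pair Zfp608 and Gramd3 held 32 members and 12 control-only peaks, Zcchc2 and Phlpp1 held 17 and 7, and Creb5 with its neighbour 9430076C15Rik held 13 and 3. Arl4a with Scin, which encodes an actin-severing protein, held 10 members and 1 control-only peak. B230359F08Rik with Dad1 held 11 and 1. These pairs were chosen after their values were seen, and whether the 2 genes of a pair share regulatory sites was not tested.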
